A study of Mus musculus with 30 samples.

Results

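The NF-kB subunits and their inhibitors were followed in mouse splenic B cells that were activated with or without the transcription factor Irf4. The members were the probe sets annotated to a single symbol among Nfkb1, Nfkb2, Rel, Rela, Relb, Nfkbia, Nfkbib, Nfkbie and Bcl3. This gave 8 genes of 18193 with a set of a single symbol, measured by 15 of 45037 probe sets: 5 sets for Nfkbia, 2 each for Nfkb2, Nfkbib and Nfkbie, and 1 each for Rel, Rela, Relb and Bcl3. No probe set in the annotation used here carried the symbol Nfkb1, and that gene was not analysed here. All 15 sets passed the filter on low values, and each of the 8 leading sets was above the table median of 188 on all 30 arrays. Values are per-array signal intensities, and differences are on the scale of log2(intensity + 16), where 1 unit is a doubling for a bright probe set.

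The cells were resting mature B cells from spleens of C57BL/6 mice of the B1-8i strain. KO cells came from Irf4-/- mice that carried a doxycycline-inducible Irf4, so every KO group, at every dose, lacked the endogenous gene per the labels. WT cells came from Irf4+/+ mice. The 10 groups of 3 arrays were unstimulated KO and WT cells (day 0), stimulated KO cells at day 1 and at day 3 in each of 3 doxycycline doses, and stimulated WT cells at the same days. The doses were 0 ng/mL (zero DOX), 16 ng/mL (low DOX) and 100 ng/mL (high DOX). Stimulation was CD40 ligand purified from insect cells plus IL-4, IL-2 and IL-5. WT cultures had no doxycycline group of their own. Each replicate was a separate mouse, 2 of the 3 replicates were run in parallel and 1 at another time, and the labels do not say which or whether one mouse supplied several KO cultures.

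NF-kB is a family of dimeric transcription factors. Rela, Rel and Relb carry their own activation domains, while Nfkb1 and Nfkb2 encode precursors that are cut to the DNA-binding subunits p50 and p52. The inhibitors IkB-alpha (Nfkbia), IkB-beta (Nfkbib) and IkB-epsilon (Nfkbie) hold dimers in the cytoplasm until a kinase complex marks them for destruction, and Bcl3 is an atypical member that works in the nucleus with p50 or p52. In B cells the CD40 receptor drives both the canonical arm, which frees Rela and Rel dimers, and the noncanonical arm, in which NIK (Map3k14) triggers processing of the Nfkb2 product and frees Relb. Several of these genes are known NF-kB targets, which closes feedback loops. Arrays measure mRNA and say nothing of nuclear localisation or precursor processing.

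Promoter sequences are shown because the inhibitor and subunit genes moved together in some groups and a kappaB element is the known binding site of the family. RefSeq promoter windows (assembly GRCm38.p6, 250 bases before the annotated start to 50 after it) were found for 7 of the 9 genes. The kappaB decamer consensus was searched by that name on both strands, with overlapping matches kept, and matched the windows of 5 of these 7 genes (Nfkb2, Rel, Nfkbia, Nfkbie and Bcl3). Of all symbols in the table, 9.55% had a window with a match (8.46% of 32851 windows). No match was found in the single window of Rela or of Nfkbib, which says only that these letters are not in those windows. The stretches below run from 120 bases before the start to 19 after it, each on the strand of its gene, and capitals mark the matches. They are Nfkb2 at chr19:46304617-46304756 on the plus strand, Rel at chr11:23770950-23771089 on the minus strand, Nfkbia at chr12:55492628-55492767 on the minus strand, Nfkbie at chr17:45555580-45555719 on the plus strand and Bcl3 at chr7:19822736-19822875 on the minus strand.
Nfkb2: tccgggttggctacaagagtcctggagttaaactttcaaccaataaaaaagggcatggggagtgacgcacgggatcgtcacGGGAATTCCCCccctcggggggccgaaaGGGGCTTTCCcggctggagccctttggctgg
Rel: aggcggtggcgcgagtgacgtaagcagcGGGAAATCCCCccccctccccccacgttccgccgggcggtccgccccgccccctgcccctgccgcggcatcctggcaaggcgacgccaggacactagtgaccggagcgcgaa
Nfkbia: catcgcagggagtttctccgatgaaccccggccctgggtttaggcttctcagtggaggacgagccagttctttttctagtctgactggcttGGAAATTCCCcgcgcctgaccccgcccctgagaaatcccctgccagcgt
Nfkbie: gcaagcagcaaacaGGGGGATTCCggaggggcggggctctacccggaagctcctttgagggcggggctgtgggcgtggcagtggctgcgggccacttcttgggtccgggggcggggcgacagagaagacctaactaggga
Bcl3: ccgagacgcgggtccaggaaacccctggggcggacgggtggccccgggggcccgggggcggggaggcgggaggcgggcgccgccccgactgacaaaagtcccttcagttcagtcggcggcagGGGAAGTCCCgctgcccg

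Counted from the annotated start as 0, the matches began 39, 38 and 11 bases upstream in Nfkb2, 92 and 91 bases upstream in Rel, 29 bases upstream in Nfkbia and 106 bases upstream in Nfkbie, and 2 bases downstream in Bcl3. In Nfkb2 and in Rel the first pair of matches overlaps by all but 1 base, so each pair reads as 1 run of capitals. The table gave Nfkb2 another pair of windows, further into the gene, with 2 matches and 1 match. A match is a description of the letters and not a measured binding site.

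**Figure D1:**
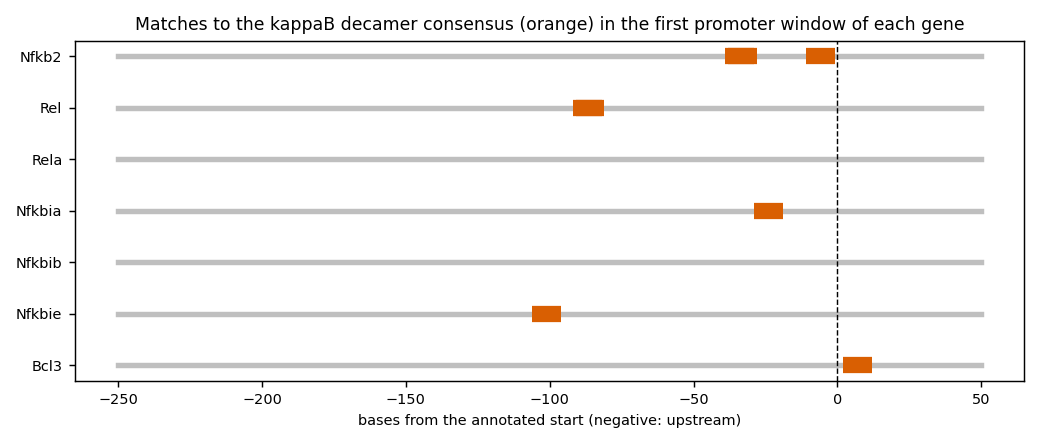
Matches to the kappaB decamer consensus (orange) in the first RefSeq promoter window of each of the 7 genes (grey bar), placed by distance in bases from the annotated start (dashed line, upstream to the left). Matches lie within 106 bases of the start in 5 genes, and the Rela and Nfkbib windows hold none.

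The arrays were checked against their labels before any comparison. On the Irf4 probe set 1421174_at, KO zero DOX arrays read 189, 146 and 164 at day 3, KO low DOX arrays 8683, 7820.2 and 8147 and KO high DOX arrays 12928, 12051 and 11816, against 147, 151 and 134 in WT. This set therefore followed the doxycycline dose in KO cells. It read as low in WT cells, which are Irf4+/+ per the labels, as in KO cells without doxycycline. The set therefore does not compare the Irf4 level of KO with that of WT cells. At day 1 an array went against its label in each of a pair of groups: the array labelled KO zero DOX replicate 2 read 1726, with 213 and 207 on the other 2 of its group, and the array labelled KO low DOX replicate 2 read 189.9, with 2289.8 and 1881 on the others. Both were kept under their labels, and day 1 results are also given without them. The other Irf4 set, 1421173_at, read 6859, 7004 and 5437 in KO cells at day 0, against 8991, 9169.9 and 9532 in WT cells, so it does not show the deletion. B cell markers were present throughout: none of the 5 measured (of 6 listed) was at or below the table median on all arrays of any group, and their summed intensity ranged from 31751 to 61477.5.

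KO and WT arrays also differed in ways that touch every KO against WT comparison. The leading Xist set gave 2 males and 1 female (replicate 3) in each of the 7 KO groups and females alone in the 3 WT groups. Of 10 myeloid markers, 10, 9 and 8 were higher in KO zero DOX than in WT cells at days 0, 1 and 3. Their summed intensity was 6189 to 14295 in KO and 2136 to 2416 in WT cells at day 0, 3376 to 5975 in KO and 1114 to 1308 in WT at day 1, and 6421 to 13294 in KO and 1323 to 1629.5 in WT at day 3. At day 3, Mpo alone was at or below the table median on all KO zero DOX arrays, whereas Lyz1, Mpo, Itgam, Cd14, Fcgr3, S100a9 and Chil3 were in WT. NK markers summed to 4713 to 9057 in KO zero DOX and 1360.0 to 2031 in WT cells at day 3, with Ncr1 at or below the median in both, and all 4 tested were higher in KO. T cell markers summed to 2258 to 2473 in KO and 1571 to 1655 in WT at day 3, with 3 of 5 tested higher and Cd3e and Cd5 at or below the median in both. At days 0 and 1, 3 and 2 of 4 NK markers and 2 and 5 of 5 T cell markers were higher in KO, and 0 were lower. The NK sum at day 0 was 3084 to 3776 in KO and 1127 to 1487 in WT cells. Plasma cell markers went the other way. Of 6 tested, 3, 3 and 6 were lower in KO zero DOX than in WT cells at days 0, 1 and 3, and 0 were higher. They summed to 4417 to 5850 in KO and 13572 to 19250 in WT cells at day 0. At day 3 the sums were 7289 to 8374 in KO and 24950 to 25873 in WT cells. The part of sex, of plasma cells and of other cells in the results below was not tested. Where a fit with a sex term is given, the term sets KO replicates 1 and 2 against KO replicate 3. Sex and replicate cannot be told apart in it. In bulk arrays, fewer cells of a type and less RNA per cell cannot be told apart.

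**Figure D2:**
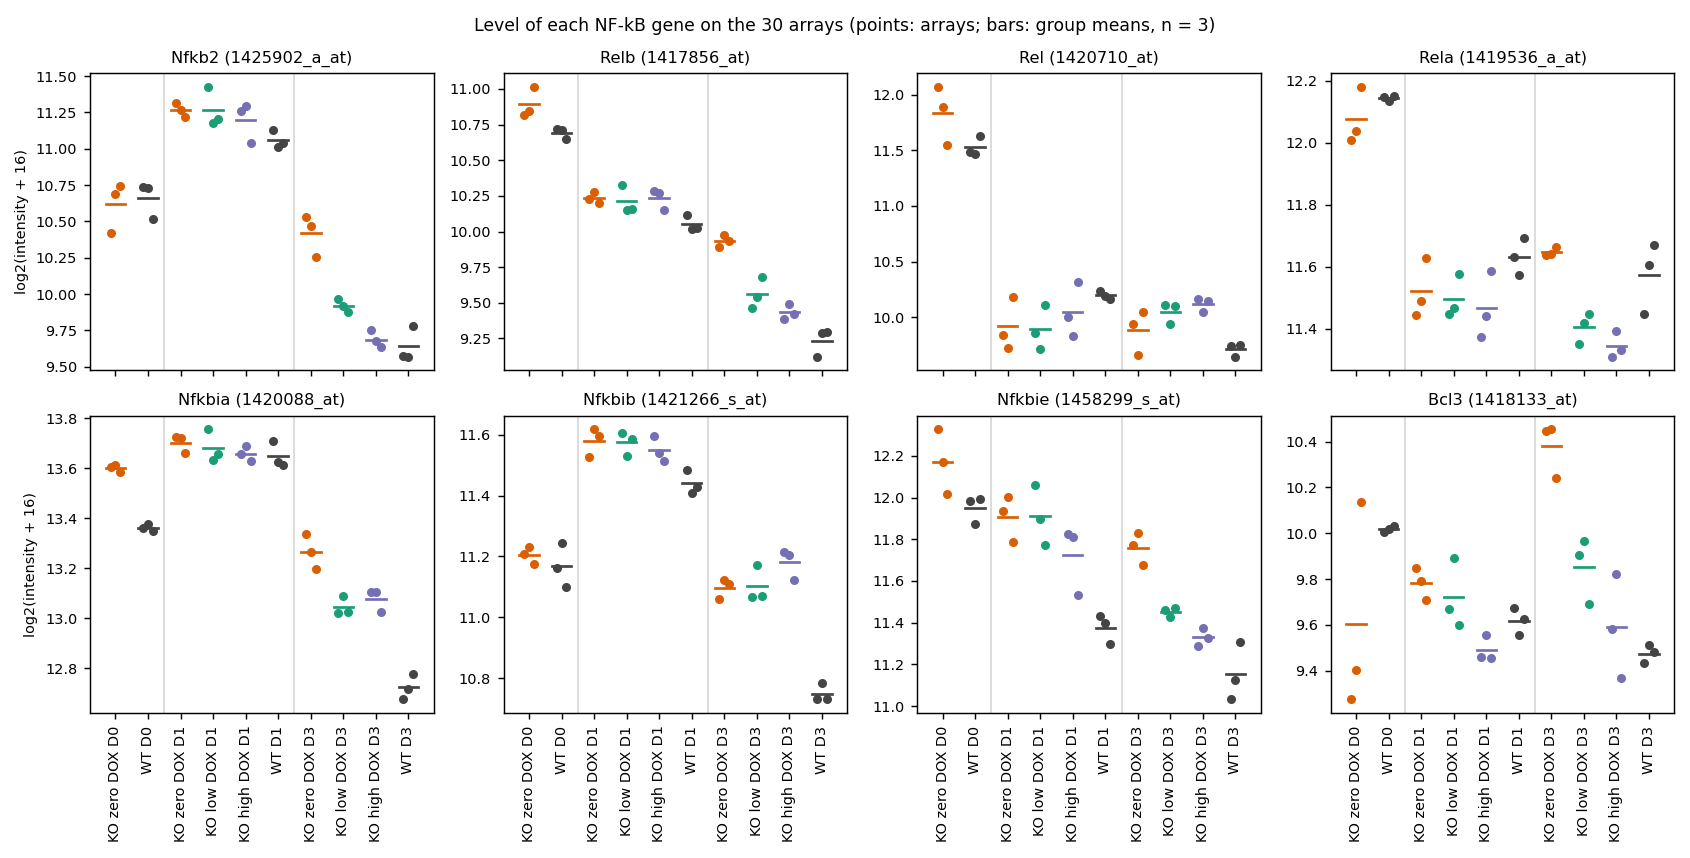
Level of the leading probe set of each of the 8 genes, as log2(intensity + 16), on every array (points) with the group mean (bar, n = 3). Groups run by day, with KO zero, low and high DOX left of WT. Nfkb2 and Nfkbia peak at day 1, Rel and Rela are highest at day 0, and Bcl3 is highest in KO zero DOX cells at day 3.

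In WT cells, most NF-kB subunit mRNAs were lower after activation than at day 0, with Nfkb2 as an early exception. Rel, the subunit c-Rel that lymphocytes need to proliferate, fell the most. Nfkb2 and the inhibitors Nfkbia and Nfkbib were higher at day 1 than at day 0 and then lower at day 3. All 8 leading sets passed the test at day 1 (3 higher, 5 lower), against 80.1% of all sets (31.7% higher, 48.4% lower). At day 3 all 8 were lower, against 35.3% of all sets.

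Rel read 2851, 2812 and 3149 at day 0, 1191, 1155 and 1133 at day 1 and 840.1, 784 and 847 at day 3 in WT cells, with no overlap between days. The log2 difference from day 0 was -1.33 (SE 0.13, adjusted p = 3.0e-09) at day 1 and -1.81 (SE 0.13, adjusted p = 1.9e-11) at day 3. Relb, the transactivating partner of p52 in the noncanonical arm, read 1666, 1662 and 1590.4 at day 0, 1094, 1023 and 1028 at day 1 and 542, 609 and 612 at day 3. Its level stepped down at each day without overlap, by -0.64 (SE 0.06, adjusted p = 3.4e-09) at day 1 and -1.46 (SE 0.06, adjusted p = 1.8e-15) at day 3 on the log2 scale. Rela, the p65 subunit of the canonical arm, differed from day 0 by -0.51 (SE 0.06, adjusted p = 9.4e-08) at day 1 and -0.57 (SE 0.06, adjusted p = 2.5e-08) at day 3. Its days 1 and 3 overlapped, and the difference between them was -0.06 (SE 0.06, adjusted p = 0.43). With arrays centred on medians that difference was called, at -0.19 (adjusted p = 0.013), and with array weights at -0.10 (adjusted p = 0.048).

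Nfkb2 read 1694, 1686 and 1446 at day 0, 2221, 2047 and 2085 at day 1 and 746, 744 and 865 at day 3 in WT cells. The day 1 arrays were all above and the day 3 arrays all below those of day 0, with differences of 0.40 (SE 0.09, adjusted p = 0.00039) and -1.02 (SE 0.09, adjusted p = 6.2e-10). The second Nfkb2 set, 1429128_x_at, moved the other way at day 1: it was lower than at day 0 by a log2 difference of -0.61 (SE 0.07, adjusted p = 5.9e-08), so the early rise of Nfkb2 rests on the leading set alone. The suffix of that set marks probes that can also bind other transcripts.

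Nfkbia, the fast-cycling inhibitor, read 10508, 10612 and 10418 at day 0, 13355, 12612 and 12514 at day 1 and 6525, 6721 and 7006 at day 3. Its day 1 rise was 0.29 (SE 0.04, adjusted p = 3.1e-06) and its day 3 difference from day 0 was -0.64 (SE 0.04, adjusted p = 6.8e-12). The other 4 Nfkbia sets moved the same way, by 0.32 to 0.54 at day 1 and by -1.01 to -0.62 at day 3, all called. Nfkbib followed the same course, at 0.27 (SE 0.05, adjusted p = 7.5e-06) and -0.42 (SE 0.05, adjusted p = 1.5e-08). Its dim second set, 1446718_at, exceeded the table median at day 0 alone, in either genotype, and passed the filter through day 0, so its fall from day 0 was fixed by the filter and is not read as a result. Nfkbie, the inhibitor that mainly restrains Rel and Rela homodimers, was lower at both days, by -0.57 (SE 0.09, adjusted p = 2.5e-06) and -0.79 (SE 0.09, adjusted p = 2.3e-08), and its second set gave -0.54 and -0.75. Bcl3 differed from day 0 by -0.40 (SE 0.14, adjusted p = 0.014) at day 1 and -0.54 (SE 0.14, adjusted p = 0.0018) at day 3.

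Over all 15 sets, 15 were called between days 1 and 0 (7 higher, 8 lower), against 80.1% of the 26095 probe sets tested (31.7% higher, 48.4% lower). At day 3 against day 0 all 15 were lower, against 65.5% of all sets called, 30.2% higher and 35.3% lower. Between days 3 and 1, 11 were called, all lower, against 65.4% called, 38.6% higher and 26.8% lower. Without 1446718_at, 14 of 14 sets were called at each day against day 0, 7 higher and 7 lower at day 1 and 14 lower at day 3. The median of the 15 sets was -0.40 at day 1 (-0.06 without 1446718_at) and -0.75 at day 3 (-0.73 without it) against day 0, and that of all sets was -0.17 and -0.05. The day 1 background depended on scaling: 39.6% of called sets were higher as deposited and 50.5% after each array was centred on its median, which moved the median of all sets from -0.17 to -0.01. With centring, 7 leading sets kept their calls at day 1 and Bcl3 did not (-0.24, adjusted p = 0.16). Between days 3 and 1 the share of called sets that were higher was 59.1% as deposited and 42.9% with centring, which moved the median of all sets from 0.08 to -0.04. The 18 immediate early genes on a separate list, which are known to respond to cell handling as well as to receptor signals, were all lower at day 1 than at day 0 (median -3.16), and their summed intensity was 25002 to 33281 at day 3 and 161742 to 166658 at day 0 in WT cells. Their part in the high day 0 levels of Rel and the other subunits was not tested.

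In KO zero DOX cells Rel, Rela and Relb were also lower at days 1 and 3 than at day 0, whereas Bcl3 was higher at day 3. Rel read 4292, 3786 and 2976 at day 0, 902, 828 and 1148 at day 1 and 967, 794 and 1044 at day 3, and differed from day 0 by -1.92 (SE 0.13, adjusted p = 3.7e-12) and -1.95 (SE 0.13, adjusted p = 5.0e-12). Relb was lower by -0.66 (SE 0.06, adjusted p = 2.2e-09) and -0.96 (SE 0.06, adjusted p = 3.8e-12), and Rela by -0.56 (SE 0.06, adjusted p = 2.6e-08) and -0.43 (SE 0.06, adjusted p = 2.2e-06). None of these 3 genes had day 0 arrays that overlapped those of later days.

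Nfkb2 read 1353, 1634 and 1701 at day 0, 2532, 2446 and 2372 at day 1 and 1460.2, 1402 and 1205 at day 3 in KO zero DOX cells. It was higher at day 1, by 0.65 (SE 0.09, adjusted p = 7.8e-07), while its day 3 arrays overlapped day 0 and the difference of -0.20 (SE 0.09, adjusted p = 0.06) did not pass the test. It was called in 4 alternatives, with the replicate number within genotype as a random block (adjusted p = 0.044; 0.059 as a fixed block), with a sex term (adjusted p = 0.046), without KO day 0 replicate 1 (-0.30, adjusted p = 0.0078) and without KO day 3 replicate 1 (-0.26, adjusted p = 0.034). Bcl3 read 604, 661 and 1109.7 at day 0, 906, 871 and 821 at day 1 and 1379, 1386 and 1193 at day 3. Day 3 lay above both earlier days without overlap, by 0.77 (SE 0.14, adjusted p = 4.3e-05) against day 0 and 0.60 (SE 0.14, adjusted p = 0.0012) against day 1. Bcl3 was the only leading set that was higher at day 3 than at day 0 in either genotype.

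The 3 cytoplasmic inhibitors were lower at day 3 than at day 0 in KO zero DOX cells too. Nfkbia differed from day 0 by 0.10 (SE 0.04, adjusted p = 0.046) at day 1 and -0.34 (SE 0.04, adjusted p = 4.5e-07) at day 3, Nfkbib by 0.38 (SE 0.05, adjusted p = 6.5e-08) and -0.11 (SE 0.05, adjusted p = 0.043), and Nfkbie by -0.26 (SE 0.09, adjusted p = 0.0099) and -0.41 (SE 0.09, adjusted p = 0.00024). The call for Nfkbia at day 1 was lost in 11 alternatives and that for Nfkbib at day 3 in 9, and that for Nfkbie at day 1 without KO day 0 replicate 1 (-0.19, adjusted p = 0.082) or KO day 1 replicate 3 (-0.20, adjusted p = 0.065). Of the 15 sets, 14 were called at day 1 (7 higher, 7 lower), against 69.8% of all sets (35.1% higher, 34.7% lower). At day 3, 14 were called (1 higher, 13 lower), against 62.9% (31.8% higher, 31.2% lower). Between days 3 and 1, 9 were called (1 higher, 8 lower), against 49.1% (25% higher, 24.1% lower). Without 1446718_at, 13 of 14 sets were called at each of days 1 and 3 against day 0. As in WT cells, the second set of Nfkb2 was lower at day 1, by -0.22 (adjusted p = 0.0093).

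**Figure D3:**
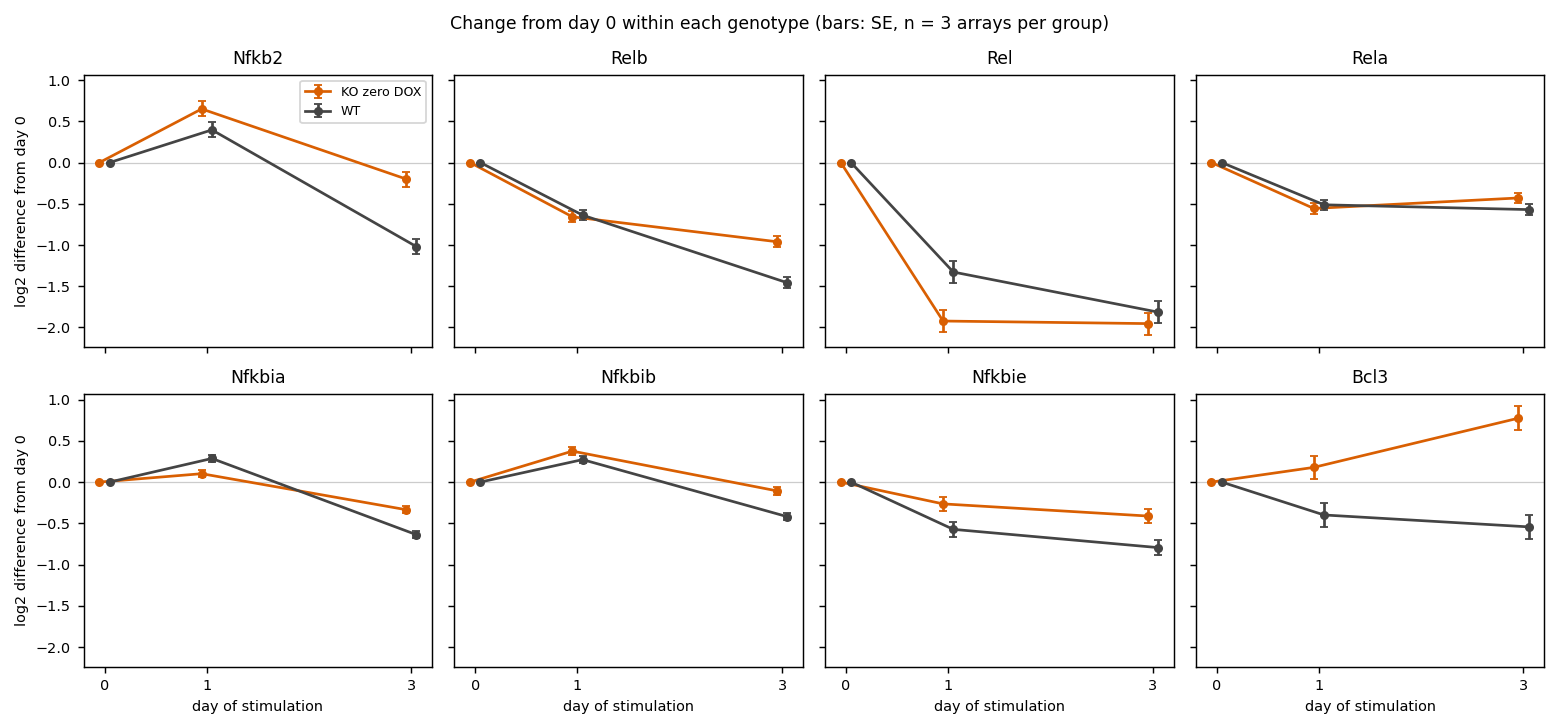
Log2 difference from day 0 of each leading set at days 1 and 3 in KO zero DOX cells (orange) and WT cells (dark grey), with SE from limma (n = 3 arrays per group). By day 3 the Bcl3 lines part, at 0.77 in KO and -0.54 in WT, while those of Rel and Rela end close together.

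Whether the change from day 0 differed by genotype was tested as an interaction, the KO zero DOX change minus the WT change. At day 3, 12 of 15 sets passed, all with a positive value, against 23.2% of all sets, 10.2% with a negative and 13% with a positive value. Bcl3 had the widest gap, 1.32 (SE 0.20, adjusted p = 5.8e-05), followed by Nfkb2 at 0.82 (SE 0.13, adjusted p = 8.1e-05) and Relb at 0.50 (SE 0.09, adjusted p = 0.00039). Nfkbie, Nfkbib and Nfkbia followed at 0.38 (SE 0.12, adjusted p = 0.028), 0.31 (SE 0.06, adjusted p = 0.001) and 0.30 (SE 0.06, adjusted p = 0.0012). The call for Nfkbie was lost in 8 alternatives, with centring (0.36, adjusted p = 0.077), with the compared arrays alone (adjusted p = 0.075) and in 6 fits without 1 array (KO day 0 replicate 3, KO day 3 replicate 2, WT day 0 replicate 1 or 3, WT day 3 replicate 1 or 2), at 0.31 to 0.37. Rel and Rela did not pass, at -0.14 (SE 0.19, adjusted p = 0.66) and 0.14 (SE 0.09, adjusted p = 0.28).

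At day 1, 7 of 15 sets passed the interaction test (3 positive, 4 negative), against 41.8% of all sets (26.8% positive, 14.9% negative). Rel was lower by more in KO cells, -0.59 (SE 0.19, adjusted p = 0.015), and Bcl3, which fell in WT cells, had an interaction of 0.58 (SE 0.20, adjusted p = 0.025). Nfkbia rose by less in KO cells, -0.18 (SE 0.06, adjusted p = 0.022), and Nfkbie fell by less, 0.31 (SE 0.12, adjusted p = 0.049). The share of called sets with a positive value was 64.2% as deposited and 34.0% after centring, which moved the median of all sets from 0.08 to -0.09. With centring, Rel and Nfkbia kept their calls, at -0.76 and -0.36, and Bcl3 (0.41, adjusted p = 0.13) and Nfkbie (0.14, adjusted p = 0.45) did not. Without the array labelled KO zero DOX replicate 2, Rel read -0.50 (adjusted p = 0.052), and without KO day 0 replicate 1 it read -0.48 (adjusted p = 0.056). Over all alternatives the day 1 calls were lost in 13 for Nfkbie, 6 for Bcl3 and 2 each for Rel and Nfkbia.

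Before stimulation, Nfkbia and Relb were higher and Bcl3 was lower in KO cells than in WT cells, the call for Nfkbia being the one that no alternative run ended. Nfkbia read 12436, 12507 and 12275 in KO cells, against 10508, 10612 and 10418 in WT cells. Every KO array lay above every WT array, with a log2 difference of 0.24 (SE 0.04, adjusted p = 0.00029), and the other 4 Nfkbia sets gave 0.19 to 0.25, all called. Relb read 1786, 1826 and 2054 in KO and 1666, 1662 and 1590.4 in WT cells, which did not overlap, and differed by 0.20 (SE 0.06, adjusted p = 0.022). That call was lost in 4 alternatives, with array weights (0.16, adjusted p = 0.12), with the compared arrays alone (adjusted p = 0.13), without KO replicate 3 (0.14, adjusted p = 0.12) and without WT replicate 3 (0.18, adjusted p = 0.074).

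Bcl3 at day 0 read 604, 661 and 1109.7 in KO cells and 1012, 1020.3 and 1031 in WT cells, a difference of -0.41 (SE 0.14, adjusted p = 0.031). The groups overlapped, because the female KO replicate 3 read above all WT arrays while the male replicates 1 and 2 read below them. That call was lost in 7 alternatives, among them without KO replicate 1 (-0.25, adjusted p = 0.23) or replicate 2 (-0.31, adjusted p = 0.16). Rel (0.31 (SE 0.13, adjusted p = 0.082)), Rela (-0.07 (SE 0.06, adjusted p = 0.45)), Nfkb2 (-0.04 (SE 0.09, adjusted p = 0.75)), Nfkbib (0.04 (SE 0.05, adjusted p = 0.58)) and Nfkbie (0.22 (SE 0.09, adjusted p = 0.059)) did not pass. Rel was called in 4 alternatives, among them the sex term (0.41, adjusted p = 0.022) and without KO replicate 3 (0.46, adjusted p = 0.011), and Nfkbie in 6, among them the random block within genotype (adjusted p = 0.047) and without KO replicate 3 (0.30, adjusted p = 0.015). In all, 9 of 15 sets were called (8 higher, 1 lower), against 30.4% of all sets (14.9% higher, 15.4% lower). Of the 8 higher sets, 5 measure the single gene Nfkbia, so the count of sets is not a count of genes. By leading set, 3 of 8 genes were called (2 higher, 1 lower). Without the dim second Nfkbib set, which passed the filter through day 0, 8 of 14 sets were called (7 higher, 1 lower). With the KO and WT day 0 arrays alone in the fit, 1 set was called, and the share of all sets called was not computed there.

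At day 1, Nfkbie was the leading set with the largest called difference between KO zero DOX and WT cells. Nfkbie read 3897, 4082 and 3518 in KO zero DOX cells, against 2752, 2680.5 and 2504 in WT cells. All 3 KO arrays were above all WT arrays, at 0.53 (SE 0.09, adjusted p = 4.9e-05), and its second set gave 0.48 (adjusted p = 3.8e-05). Without the array labelled KO zero DOX replicate 2 the call held, and it held after centring at 0.39 (adjusted p = 0.0028).

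Relb (0.18 (SE 0.06, adjusted p = 0.027)) and Nfkbib (0.14 (SE 0.05, adjusted p = 0.015)) were called at day 1 but lost the call without the array labelled KO zero DOX replicate 2, at 0.16 (adjusted p = 0.09) and 0.12 (adjusted p = 0.066). After centring they read 0.04 and -0.0025, so the direction of Nfkbib flipped. The second Nfkb2 set was higher in KO cells by 0.38 (SE 0.07, adjusted p = 0.00028), and the leading set by 0.21 (SE 0.09, adjusted p = 0.063), which did not pass. Rel (-0.28 (SE 0.13, adjusted p = 0.086)), Rela (-0.11 (SE 0.06, adjusted p = 0.15)), Nfkbia (0.05 (SE 0.04, adjusted p = 0.33)) and Bcl3 (0.16 (SE 0.14, adjusted p = 0.36)) did not pass. After centring Rel and Rela were called lower in KO cells, at -0.42 (adjusted p = 0.0081) and -0.25 (adjusted p = 0.002). In all, 6 of 15 sets were called, all higher, against 46.6% of all sets, 17.3% lower and 29.3% higher, and 3 without that array. With array weights 12 of 15 were called, with Nfkb2 (0.24, adjusted p = 0.001), Nfkbia (0.07, adjusted p = 0.048) and Bcl3 (0.21, adjusted p = 0.031) higher and Rel (-0.35, adjusted p = 0.0014) and Rela (-0.12, adjusted p = 0.026) lower. The share of all sets called with array weights was not computed, so that count has no background beside it. Nfkb2 (adjusted p = 0.012) and Bcl3 (adjusted p = 0.04) were also called with the compared arrays alone. Of all called sets, 62.8% were higher as deposited and 33.3% with centring, which moved the median from 0.05 to -0.09.

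By day 3, 6 of the 8 genes were higher in KO zero DOX cells than in WT cells, and Rel and Rela did not pass the test. The 6 were the noncanonical pair Nfkb2 and Relb, the 3 cytoplasmic inhibitors and Bcl3. In fold terms Bcl3 was 1.87 times, Nfkb2 1.71 times and Relb 1.62 times the WT level, Nfkbie and Nfkbia 1.52 and 1.46 times, and Nfkbib 1.27 times.

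Bcl3 read 1379, 1386 and 1193 in KO zero DOX cells, against 675, 715 and 698 in WT cells. The lowest KO array was well above the highest WT array, and the log2 difference was 0.90 (SE 0.14, adjusted p = 2.7e-05). Nfkb2 read 1460.2, 1402 and 1205 in KO zero DOX cells, against 746, 744 and 865 in WT cells, again without overlap, at 0.77 (SE 0.09, adjusted p = 5.9e-07). Its second set read 1321, 1294 and 1475 in KO and 1079, 988 and 1121 in WT cells, and differed by 0.35 (SE 0.07, adjusted p = 0.00058). Relb read 933, 991 and 959.9 in KO zero DOX cells, against 542, 609 and 612 in WT cells, at 0.70 (SE 0.06, adjusted p = 1.7e-08). Both genes of the noncanonical pair were thus higher in KO cells on every array.

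Nfkbia read 10317, 9827 and 9369 in KO zero DOX cells, against 6525, 6721 and 7006 in WT cells, a log2 difference of 0.54 (SE 0.04, adjusted p = 2.2e-09). The other 4 Nfkbia sets gave 0.46 to 0.77, all called and none with overlapping groups. Nfkbie read 3483, 3625 and 3259 in KO zero DOX cells, against 2079, 2219.5 and 2519 in WT cells, at 0.60 (SE 0.09, adjusted p = 1.0e-05), and its second set at 0.59. Nfkbib read 2118, 2216 and 2193 in KO zero DOX cells, against 1684, 1748 and 1684 in WT cells, the smallest of the 6 called differences at 0.35 (SE 0.05, adjusted p = 2.2e-06). Its dim second set lay below the table median in both groups.

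Rel read 967, 794 and 1044 in KO zero DOX cells, against 840.1, 784 and 847 in WT cells, at 0.17 (SE 0.13, adjusted p = 0.35). Rela read 3166, 3176 and 3231 in KO zero DOX cells, against 2774, 3099 and 3240.3 in WT cells, at 0.07 (SE 0.06, adjusted p = 0.4). The groups overlapped for both genes. In all, 12 of 15 sets were called, all higher, against 34.8% of all sets, 15.6% lower and 19.2% higher. The median of the 15 sets was 0.58 and that of all sets 0.01. With a sex term the 6 calls remained, at 0.87 for Bcl3, 0.72 for Nfkb2, 0.71 for Relb, 0.51 for Nfkbia and for Nfkbie, and 0.33 for Nfkbib.

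**Figure D4:**
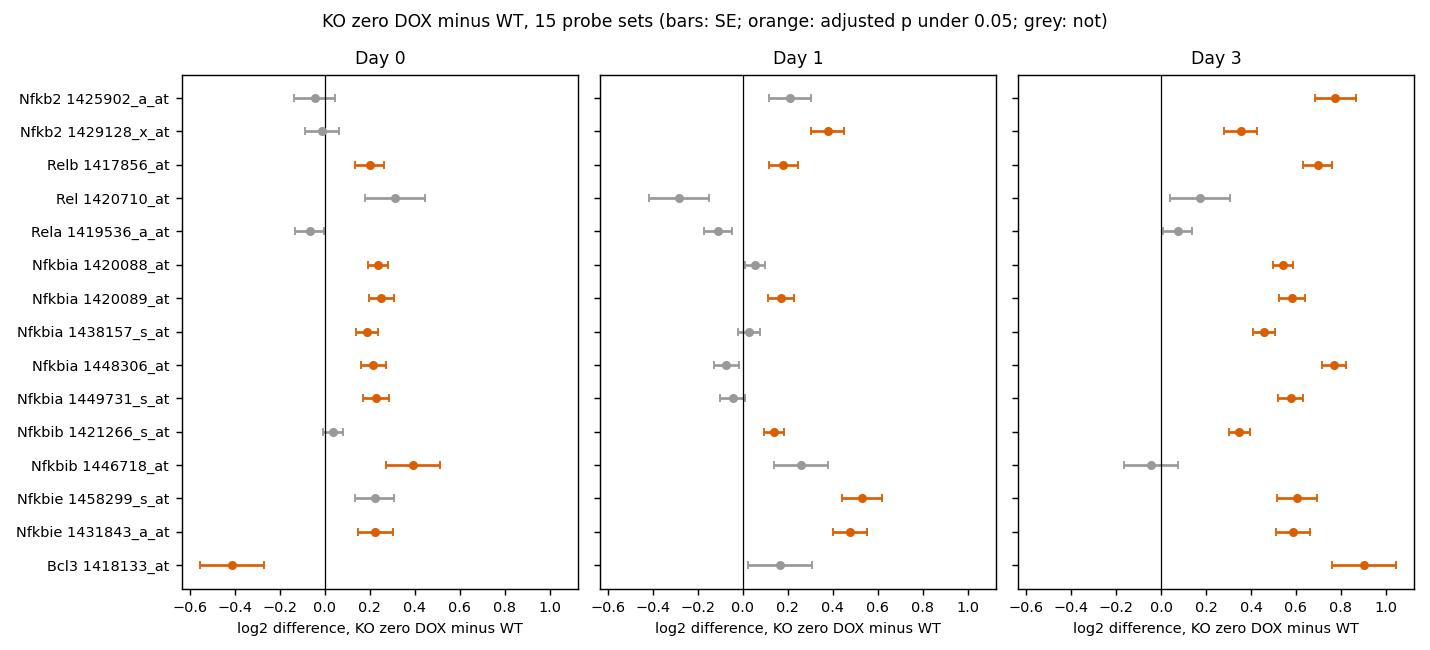
Log2 difference of KO zero DOX minus WT for all 15 probe sets at days 0, 1 and 3, with SE from limma. Orange points had an adjusted p under 0.05 and grey points did not; 9, 6 and 12 sets are orange at the 3 days, and at day 3 all 12 lie right of 0.

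In KO cells at day 3, most of these genes were lower with doxycycline than without it. Of the 15 sets, 12 were lower in low DOX than in zero DOX cells, against 31.6% of all sets called (15.3% higher, 16.2% lower). In high DOX against zero DOX cells 11 were lower, against 45.5% called (21.7% higher, 23.8% lower), and none was higher in either comparison. The same 6 of 8 leading sets were called at both doses: Nfkb2, Relb, Rela, Nfkbia, Nfkbie and Bcl3. Both comparisons share the zero DOX arrays.

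Nfkb2 read 1460.2, 1402 and 1205 at zero DOX, 985, 952 and 923 at low DOX and 846, 803 and 778 at high DOX. The doses formed 3 steps with no overlap, and the differences from zero DOX were -0.50 (SE 0.09, adjusted p = 0.00021) and -0.73 (SE 0.09, adjusted p = 5.3e-07). Bcl3 read 1379, 1386 and 1193 at zero DOX, 944, 984 and 810.1 at low DOX and 751, 891 and 646 at high DOX. Low and high DOX overlapped each other and lay below zero DOX, by -0.53 (SE 0.14, adjusted p = 0.0066) and -0.79 (SE 0.14, adjusted p = 7.4e-05). Relb read 933, 991 and 959.9 at zero DOX, 690.2, 727 and 807 at low DOX and 653, 703 and 670.2 at high DOX, with differences of -0.37 (SE 0.06, adjusted p = 0.00012) and -0.50 (SE 0.06, adjusted p = 8.8e-07). Its low and high DOX arrays overlapped.

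Nfkbie read 3483, 3625 and 3259 at zero DOX, 2807, 2738 and 2819 at low DOX and 2488, 2635 and 2554 at high DOX, and was lower by -0.31 (SE 0.09, adjusted p = 0.0094) and -0.43 (SE 0.09, adjusted p = 0.00028). Its 3 doses did not overlap. Nfkbia was lower by a similar amount at the 2 doses, -0.22 (SE 0.04, adjusted p = 0.00054) and -0.19 (SE 0.04, adjusted p = 0.0012). Rela was lower by -0.24 (SE 0.06, adjusted p = 0.0051) and -0.30 (SE 0.06, adjusted p = 0.00037), although KO zero DOX and WT cells had not differed in Rela beyond the test. Nfkbib (0.01 (SE 0.05, adjusted p = 0.95) and 0.08 (SE 0.05, adjusted p = 0.14)) and Rel (0.16 (SE 0.13, adjusted p = 0.38) and 0.23 (SE 0.13, adjusted p = 0.17)) did not pass.

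Between high and low DOX at day 3, limma called 0 of 15 sets, against 10.4% of all sets (5.46% higher, 4.93% lower). An unadjusted p under 0.05 was reached by 1 member set and by 5777 of all 26095 sets. The leading sets of Nfkb2 (-0.23 (SE 0.09, adjusted p = 0.12)) and Bcl3 (-0.26 (SE 0.14, adjusted p = 0.3)) had the largest differences. With array weights both were called, at -0.23 (adjusted p = 0.0055) and -0.25 (adjusted p = 0.032). Of all called sets, 52.6% were higher in high DOX as deposited and 37.0% with centring. Markers of other cells moved with dose at day 3. The myeloid sum was 6421 to 13294 at zero, 2395 to 4373 at low and 1203 to 1644 at high DOX, and 8 of 10 markers were lower at each dose than at zero DOX. All 6 plasma cell markers were higher at both doses than at zero DOX (medians 2.25 and 3.09), all 5 B cell markers were lower, and all 4 NK markers were lower at high DOX. Their part in the dose response of the NF-kB genes was not tested.

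**Figure D5:**
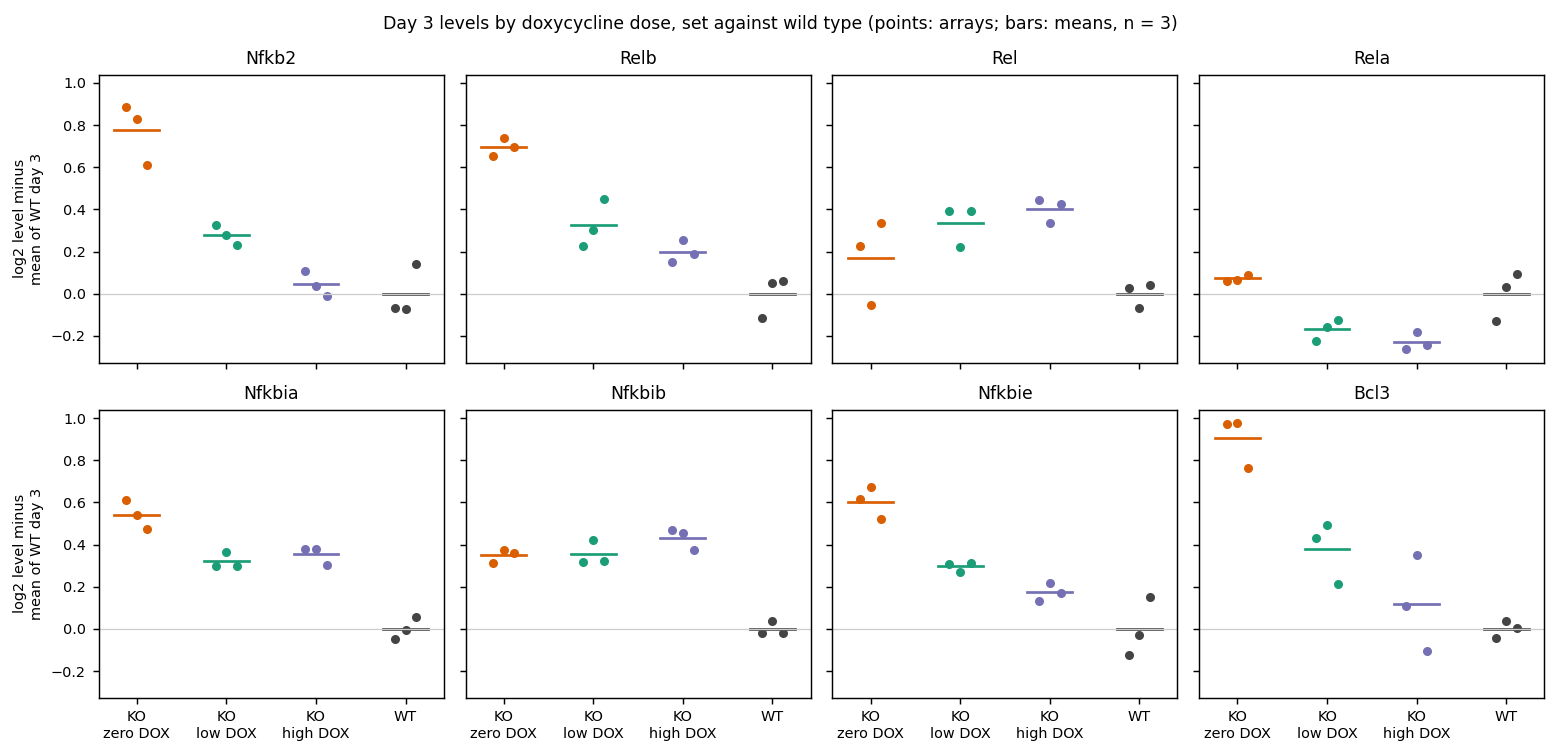
Day 3 level of each leading set minus the mean of the WT day 3 arrays (log2), for KO cells at zero, low and high DOX and for WT cells; points are arrays and bars are means (n = 3). The means of Nfkb2, Relb, Nfkbie and Bcl3 step down toward the WT level with dose. The main fit called no member set between low and high DOX. Relb, Nfkbia and Nfkbib were called above WT at every dose.

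At day 1 doxycycline gave no called difference in any member set. High against zero DOX had 0 of 15 sets called against 1.59% of all sets, high against low DOX 0 against 1.06%, and low against zero DOX 0 against 0%. At an unadjusted p under 0.05 there were 2, 2 and 0 of 15 member sets in limma, against 2588, 2301 and 90 of all 26095 sets. Of all sets called between high and zero DOX, 47.8% were higher as deposited and 61.4% with centring. The leading sets differed between high and zero DOX by -0.29 (SE 0.14, adjusted p = 0.51) for Bcl3, whose arrays did not overlap (689, 737 and 686 at high and 906, 871 and 821 at zero DOX), and by -0.18 (SE 0.09, adjusted p = 0.49) for Nfkbie, with smaller differences elsewhere. Without the pair of arrays that went against their labels the count stayed at 0 in these 3 comparisons.

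Set against WT cells at day 3, the induced cultures fell into groups of genes. At high DOX, Nfkb2 (0.05 (SE 0.09, adjusted p = 0.74)), Bcl3 (0.12 (SE 0.14, adjusted p = 0.57)) and Nfkbie (0.17 (SE 0.09, adjusted p = 0.13)) did not pass the test. With array weights Nfkbie (0.26, adjusted p = 0.0014) and Bcl3 (0.23, adjusted p = 0.037) were called higher, and Nfkbie also without WT replicate 3 (0.25, adjusted p = 0.04). Nfkbia and Nfkbib were higher than in WT cells, at 0.35 (SE 0.04, adjusted p = 9.7e-07) and 0.43 (SE 0.05, adjusted p = 6.5e-08), and Relb at 0.20 (SE 0.06, adjusted p = 0.019). The call for Relb was lost without KO high DOX replicate 2 (0.17, adjusted p = 0.084) or WT replicate 1 (0.14, adjusted p = 0.13). Nfkbib read 2363, 2344 and 2212 in high DOX cells, against 1684, 1748 and 1684 in WT cells, with no overlap.

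Rela and Rel were also called against WT at high DOX. Rela read 2522, 2673 and 2559 in high DOX cells, against 2774, 3099 and 3240.3 in WT cells, and was lower by -0.23 (SE 0.06, adjusted p = 0.0057). Rel read 1127, 1044 and 1113 in high DOX cells, against 840.1, 784 and 847 in WT cells, and was higher by 0.40 (SE 0.13, adjusted p = 0.02), a call lost without KO high DOX replicate 1 or WT replicate 2. Rel in high against zero DOX cells did not pass the test, as given above. In all, 9 of 15 sets were called (8 higher, 1 lower), against 37.4% of all sets (19.6% higher, 17.8% lower). At low DOX 12 sets were called (11 higher, 1 lower), against 30.6% (16.9% higher, 13.8% lower). There Nfkbib (0.35), Relb (0.33), Nfkbia (0.32), Nfkbie (0.30), Nfkb2 (0.28) and Bcl3 (0.38) were higher and Rela (-0.17) was lower, with the calls of Bcl3 and Rela each lost in 9 alternatives, that of Nfkb2 in 5 (sex term 0.22, adjusted p = 0.083, and KO low DOX replicates 1 and 2 and WT replicates 1 and 2 each left out, 0.24 to 0.28) and that of Nfkbie in 2 (sex term 0.20, adjusted p = 0.053, and without WT replicate 1, 0.24, adjusted p = 0.078). Rel, at 0.34 (SE 0.13, adjusted p = 0.06), did not pass but was called in 5 alternatives, among them the sex term (0.44, adjusted p = 0.015).

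At day 1, high DOX cells differed from WT cells in 5 sets (4 higher, 1 lower), against 37.5% of all sets (25% higher, 12.5% lower). Nfkbie was higher by 0.35 (SE 0.09, adjusted p = 0.0038) and Relb by 0.18 (SE 0.06, adjusted p = 0.032), while Rela was lower by -0.16 (SE 0.06, adjusted p = 0.044). The call for Rela was lost in 8 alternatives, among them a sex term (-0.10, adjusted p = 0.16), and that for Relb in 5. After centring, Nfkbie (0.22, adjusted p = 0.076) and Relb (0.06) were no longer called. Of all called sets, 66.6% were higher as deposited and 34.6% with centring, which moved the median from 0.05 to -0.07. Without KO high DOX replicate 1, KO high DOX replicate 2 or WT replicate 3, 3 sets were called in each case.

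Genes upstream of NF-kB were summarised from lists of signalling genes, brakes, other IkB-like genes and target genes. At day 3, 10 of 22 tested upstream genes were higher in KO zero DOX than in WT cells and 1 was lower, against 19.2% higher and 15.6% lower of all sets, with a median of 0.11 against 0.01. They included the adaptor Traf1 (1.01), the receptor Cd40 (0.81), the protease Malt1 (0.76) and the ubiquitin ligase Birc2 (0.36). At high against zero DOX, 2 were higher and 10 lower (median -0.19), against 21.7% and 23.8% of all sets, including Cd40 (-1.25), Malt1 (-0.81), the kinase Ikbkb (-0.55) and Birc3 (-0.50). At low against zero DOX, 1 was higher and 9 lower, against 15.3% and 16.2%. NIK itself (Map3k14) did not pass in either contrast, at 0.02 (adjusted p = 0.84) in KO against WT and -0.14 (adjusted p = 0.15) in high against zero DOX.

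The brakes on the pathway include deubiquitinases and their partners. Of 13 tested, 6 were higher and 1 was lower in KO zero DOX than in WT cells at day 3 (median 0.11). Of all sets, 19.2% were higher and 15.6% lower. Tnfaip3, which encodes the deubiquitinase A20, was higher by 0.72, its partner Tnip1 by 0.63, N4bp1 by 0.48 and Pdlim2 by 0.45. High against zero DOX gave 2 higher and 8 lower (median -0.26), against 21.7% and 23.8% of all sets. The lower genes included Pdlim2 (-0.89), Tnip1 (-0.82), Otulin (-0.62) and Tnfaip3 (-0.59). Low against zero DOX gave 0 higher and 8 lower, against 15.3% and 16.2% of all sets. Of 3 tested IkB-like genes that were no members, Nfkbiz (0.84) and Nfkbid (0.55) were higher in KO zero DOX than in WT cells. At high against zero DOX Nfkbiz was lower (-0.86) and Nfkbid was higher (0.37).

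Target genes did not move as one. Of 26 tested, 10 were higher and 2 lower in KO zero DOX than in WT cells at day 3 (median 0.25), against 19.2% and 15.6% of all sets, led by the chemokine Ccl22 (2.27), the cytokine Il6 (1.14), the chemokine Ccl3 (1.04) and cyclin Ccnd2 (0.90). High against zero DOX gave 6 higher and 10 lower (median -0.15), against 21.7% and 23.8%, with Cd86 (-1.64), Fas (-1.51) and Ccl22 (-1.26) lower and Tnf (1.03) higher. In WT cells at day 1 against day 0, 12 were higher and 13 lower, in a contrast where 31.7% of all sets were higher and 48.4% lower. Ccl22 (6.75) and the survival gene Bcl2l1 (3.52) rose while the homing receptor Ccr7 (-3.52) and the AP-1 gene Junb (-2.94) fell. In the same contrast upstream genes gave 4 higher and 13 lower of 22, with Traf1 (2.51) and the kinase Map3k7 (0.99) higher and Malt1 (-2.51) and Tab1 (-0.90) lower. The brakes gave 3 higher and 9 lower of 13, with Zc3h12a at -1.81.

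Across the 10 groups, the widest span of group means belonged to Rel, 2.12 on the log2 scale, then Relb at 1.66 and Nfkb2 at 1.63. Nfkbie spanned 1.02, Nfkbia 0.98, Bcl3 0.90, Nfkbib 0.83 and Rela 0.80. For Rel, KO and WT day 0 led (log2 means 11.84 ± 0.27 and 11.53 ± 0.09, SD, n = 3) and overlapped each other. WT day 1 came next at 10.20 ± 0.04, and the other 7 groups overlapped their neighbours down to WT day 3 at 9.71 ± 0.06. For Relb, KO day 0, WT day 0, the 3 KO day 1 groups, WT day 1 and KO zero DOX day 3 followed each other without overlap between those steps. KO low and high DOX day 3 overlapped, and WT day 3 was lowest, at 9.24 ± 0.10, below all other arrays.

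For Nfkb2, the 4 day 1 groups led and overlapped each other, from 11.27 ± 0.14 in KO low DOX to 11.06 ± 0.06 in WT. Both day 0 groups and KO zero DOX day 3 formed a middle group, and the remaining day 3 groups were lowest. For Nfkbia, day 1 led, then KO day 0, WT day 0 and KO zero DOX day 3 in separate steps, with WT day 3 lowest at 12.72 ± 0.05. Nfkbib had the same top and bottom. Nfkbie was highest in KO day 0 cells at 12.17 ± 0.15 and lowest in WT day 3 cells at 11.16 ± 0.14, which overlapped KO high DOX day 3. For Rela, both day 0 groups led and overlapped, and the other 8 groups overlapped their neighbours. For Bcl3, KO zero DOX day 3 stood alone at 10.38 ± 0.12 and WT day 0 came next at 10.02 ± 0.01, above KO low DOX day 3 but overlapping KO day 0, whose replicate 3 read higher. The 8 groups below WT day 0 each overlapped the next in order.

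Pearson correlations of the 10 group means describe which members shared a course, and these means come from the same 30 arrays. Nfkb2 with Nfkbia gave 0.95, Nfkbia with Nfkbib 0.91, Relb with Nfkbie 0.91 and Rel with Rela 0.89. Bcl3 gave at most 0.31 with any other member. Among all 12183 genes, the 3 closest courses were those of Smg5 (0.992), Map2k4 (0.983) and Adck1 (0.982) for Nfkb2, of Fcsk (0.990), Nkiras1 (0.987) and Ipo8 (0.985) for Relb, of Rsrc2 (0.996), Dvl1 (0.992) and Coq10b (0.991) for Rel, and of Cdc37l1 (0.994), 1700029J07Rik (0.991) and Sbk1 (0.989) for Rela. For the inhibitors they were Dot1l (0.972), Mapkbp1 (0.967) and Map2k1 (0.966) for Nfkbia, Ppig (0.984), Dnajc8 (0.976) and Vps33b (0.974) for Nfkbib, and Zfp691 (0.992), Dcaf15 (0.972) and Mapk7 (0.964) for Nfkbie. Bcl3 had the least close neighbours, Rassf4 (0.915), Aasdh (0.900) and Hif1a (0.898).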

How the data were processed

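Signal was measured on 30 Affymetrix 430 2.0 arrays, 1 per culture, in 10 groups of 3. The authors deposited linear signal intensities, which they normalized with D-Chip by a model of the perfect-match probes, per the labels of the series. MAS5 stands in the submitters' processing notes without a stated role. RNA was extracted with Trizol and 250 ng went into labelled cRNA, per the labels' protocols. Of 45101 probe sets, 64 control sets were left out, 34945 had 1 symbol, 932 several and 9160.0 none in the platform annotation, which can be old, and 34741 sets were matched to RefSeq by gene ID for their current symbol. Array medians lay between 171 and 199.7, and signals give no counting depth, so the number of arrays limits the precision.

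From the deposited intensities, log2(intensity + 16) was computed with no further normalization. A set was tested if at least 3 of 30 arrays exceeded the table median of 188, which left 26095 sets. A model with 1 mean per group over all 30 arrays was fitted in limma 3.58.1 (R 4.3.3), with 20 residual degrees of freedom and a median residual SD of 0.106. Benjamini-Hochberg adjustment ran over all 26095 sets in each of 20 comparisons, and sets under 0.05 were called. With 3 arrays a side, exact permutation p-values have a floor of 0.1. The fit was tested on simulated data. Each gene is led by its tested set of highest mean. Up to 4 members per list, those whose called differences are largest, are named, and for each member the 3 genes with the most similar group means (1 set per gene, 12183 genes). Junb, N4bp1, Map3k14 and other genes outside that rule were chosen after their values were seen. The members and lists were chosen with earlier results of these data known.

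Same-numbered KO arrays deviated together in every comparison of KO groups (correlations of deviations from the group means over all tested sets, 0.31 to 0.85), which was not so in each pair of WT groups or of KO with WT groups. The replicate number within genotype was therefore also fitted as a block. Other alternatives were the pseudocount, the filter, median centring, quantile normalization, array weights, the compared arrays alone, 1 set per gene, a sex term and each array left out. They were compared on calls and log2 differences.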

Additional observations from a re-analysis of the deposited data

Results flagged for a closer look

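By limma's interaction test, the change from day 0 to day 3 differed between KO zero DOX and WT cells in 23.2% of all sets. Among the members 12 of 15 sets passed, all with a larger value in KO cells. On the log2 scale these were Bcl3 (1.32), Nfkb2 (0.82 on 1425902_a_at and 0.37 on 1429128_x_at), Relb (0.50), Nfkbia (0.55 on 1448306_at, 0.35 on 1449731_s_at, 0.33 on 1420089_at, 0.30 on 1420088_at and 0.27 on 1438157_s_at), Nfkbie (0.38 on 1458299_s_at and 0.36 on 1431843_a_at) and Nfkbib (0.31 on 1421266_s_at). The call of the leading Nfkbie set was lost in 8 alternatives. The 5 Nfkbia sets measure 1 gene and are no replicates of each other.

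At day 1 the interaction passed in 7 of 15 member sets, against 41.8% of all sets. That count is near the share of all sets and is not read as a result about the members. It was positive for Bcl3 (0.58), Nfkb2 on 1429128_x_at (0.39) and Nfkbie on 1458299_s_at (0.31), and negative for Rel (-0.59) and for Nfkbia on 1448306_at (-0.29), 1449731_s_at (-0.27) and 1420088_at (-0.18). KO day 0 arrays were 2 males and 1 female and WT day 0 arrays were all female. Every KO group had the same mix of sexes, so a sex term cannot move the value of these interactions. The leading sets named here kept their calls with that term, which is therefore no test of sex. In other alternatives the day 1 calls of the leading sets were lost in 13 for Nfkbie, 6 for Bcl3 and 2 each for Rel and Nfkbia.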

How the results depend on the processing

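Over 3128 alternatives for the leading sets, 2953 kept the side of the threshold, 121 kept the direction and lost the call, 53 gained a call and 1 reversed. A change of direction counted as a reversal only where the main fit or the alternative called the set. The day 3 calls of KO zero DOX against WT and of low or high against zero DOX held in every alternative run, except that quantile normalization added Nfkbib at high DOX (0.12, adjusted p = 0.028). The reversal was Nfkbib in KO zero DOX against WT cells at day 1, at -0.0025 (adjusted p = 0.97) with arrays centred on medians. Array weights moved the count of called member sets to 12 (main 6) for KO zero DOX against WT at day 1, to 9 (main 5) for KO high DOX against WT at day 1 and to 2 (main 0) for high against low DOX at day 3. The arrays of KO and WT day 0 alone gave 1 (main 9), in a fit with fewer arrays to estimate the spread. The cause of these moves was not tested. Leaving out 1 array at a time gave 3 to 7 for KO zero DOX against WT at day 1, 3 to 5 for KO high DOX against WT at day 1, 6 to 10 for KO against WT at day 0 and 9 to 12 for KO low DOX against WT at day 3. Without both arrays that went against their labels, KO zero DOX against WT at day 1 gave 3. For array weights, the compared arrays alone and the fits without an array, the share of all sets called was not computed. Whether all sets moved alike in those fits cannot be told from these counts.

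The replicate number within genotype as a block moved no count of member sets by over 1.5 times. For days 3 and 1 of KO zero DOX cells the blocked count was 10 (main 9), since Rela was called (0.13, adjusted p = 0.032), and it was 12 and 11 for low and high against zero DOX at day 3, as without the block. Over all sets the block gave 1032 called sets (main 416) for high against zero DOX at day 1, 752 (main 276) for high against low DOX at day 1 and 4196 (main 2711) for high against low DOX at day 3. Nfkb1 was not analysed here. Only 3 arrays per group limit small differences, and dim probe sets such as the second of Nfkbib lie near the floor of the array.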

Other observations

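The dim second Nfkbib set, 1446718_at, had its highest values at day 0, with 413, 410.1 and 334 in KO cells and 271, 278 and 320.2 in WT cells. In all other groups it lay between 88.25 and 146, below the table median of 188, while the leading Nfkbib set was brightest at day 1. The array labelled KO zero DOX replicate 2 at day 1, which carried Irf4 signal, read 828 for Rel and 4082 for Nfkbie, the lowest and the highest of its group.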
